A study of Mus musculus with 4 samples.

Results

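The comparison described here sets lamina propria lymphocytes of Stat4-/- mice against those of wild-type mice when both had received dextran sulfate sodium (DSS) and LIF. Its members are genes: of 20655 genes named on the array, 8346 were measured on both arrays, because their brightest probe gave a signal well above the local background on each. The study hybridized RNA from cells of C57BL6 mice, taken on day 10, to 4 one-colour (Cy3) Agilent arrays. All 4 groups received DSS. They were wild-type mice given LIF or not, and Stat4-/- mice given LIF or not, and they are named below by genotype and LIF alone. There was 1 array per group from 5 mice per group, and neither pooling of the RNA is stated in the labels nor how the Stat4 allele was disrupted. Each group is therefore a single value per gene, so no difference can be set against a spread between replicates and no p-value appears.

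STAT4 is the transcription factor that interleukin-12 activates in T cells and natural killer (NK) cells, where it drives interferon gamma production and the T helper 1 (Th1) programme. LIF is a cytokine of the interleukin-6 family that signals through the LIF receptor and gp130, mainly to STAT3. DSS in drinking water injures the colonic epithelium, and the resulting colitis draws neutrophils and monocytes into the lamina propria, the connective tissue below the epithelium in which lymphocytes and plasma cells reside. The comparison asks how the lymphocytes of LIF-treated mice differ with the Stat4 genotype.

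Values below are log2 levels, the log2 processed signal of a probe minus the 75th percentile of its array, or differences of such levels, labelled knockout minus wild type. A difference of 1 is 2-fold, and that size was used for counting. Within the pair of arrays the log2 difference had a median SD of 0.103 over replicate spots of one probe (139 probes with at least 5 spots). This covers error between spots within an array. It does not cover differences of labelling, hybridization or scan between arrays, nor the spread between mice. Where a probe was well above background on 1 array alone, the difference is a bound, taken against the dim probe's value or the lowest signal that passed on the same array, whichever is higher, and is given as "at least".

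Some facts of the arrays bear on every value. The array of LIF-treated wild type stood apart: across the 12674 probes that passed the background test on every array it correlated at r = 0.800 to 0.818 with the others, which correlated at 0.951 to 0.980 among themselves. It was also the dimmest, with 37.6% of 39429 probes well above background against 44.9% to 61.7% on the others. The arrays compared here came from separate scans, so scan and genotype cannot be told apart, whereas the 2 arrays without LIF shared a scan. Stat4 itself was measured by 1 probe, with levels of −0.49 in wild type without LIF, 0.21 in LIF-treated wild type, 0.31 in the labelled knockout without LIF and −0.48 in the LIF-treated labelled knockout. The probe did not separate the genotypes, and whether it lies in the disrupted part of the gene is not known, so the Stat4-/- arrays are called labelled knockout and every direction rests on the labels. Because the array that stands apart enters each difference under LIF, most named genes are given with their levels on the other arrays or with the genotype difference without LIF, which shares no array with it.

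Over the 8346 measured genes 1182 (14.2%) were higher in the labelled knockout under LIF by 2-fold or more, 2612 (31.3%) were lower by that much, and the median difference was −0.45. With normexp background correction without an added offset in place of the scanner's processed signal, the split was 455 higher and 2845 lower. The same genotype difference without LIF had 1386 (13.2%) higher and 731 (6.94%) lower of 10527 genes, with a median of 0.07. The SD of the differences was 1.58 under LIF and 0.849 without it. By their bounds, 613 further genes were higher and 577 lower under LIF. The gene groups below are read against these shares, and against the genes in which both labelled knockout arrays lay at least 2-fold above both wild-type arrays (184 of 8037, 2.29%) or below both (176, 2.19%).

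Neutrophil genes were higher in the LIF-treated labelled knockout. Of 23 neutrophil granule and effector genes on the array 12 were measured, 10 of these were higher by 2-fold or more, 0 were lower, and their median difference was 1.79, and 0.74 with normexp without an offset. Another 4 were higher by their bounds, and 4 were not well above background on either array. None of the 12 had a second measured probe under LIF. The levels separated the genotypes whether LIF was given or not: in 7 of 12 genes both labelled knockout arrays exceeded both wild-type arrays at least 2-fold, and the mean level of the 12 genes was 3.86 and 3.44 in wild type (without LIF, then with it) against 5.54 and 5.36 in the labelled knockout. S100a8 and S100a9 encode the subunits of calprotectin, the most abundant protein of the neutrophil cytoplasm. S100a8 had levels of 7.95 in wild type without LIF, 7.50 in LIF-treated wild type, 10.75 in the labelled knockout without LIF and 10.17 in the LIF-treated labelled knockout, and was 6.36-fold higher in the last than in wild type with LIF. S100a9 had levels of 6.68, 6.47, 9.36 and 9.42 in the same order and was 7.71-fold higher under LIF. For both genes the wild-type arrays lay close together, as did the labelled knockout arrays, and the genotypes did not overlap.

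Secreted and surface proteins of neutrophils followed the same order. Retnlg, a resistin-like protein of mouse neutrophils, had levels of 6.69 and 5.93 in wild type and 9.53 and 8.94 in the labelled knockout, with a log2 difference of 3.00 under LIF. Hp, which encodes the haemoglobin scavenger haptoglobin, had levels of 1.12 and 0.30 against 3.90 and 4.18, a difference of 14.8-fold under LIF. The formyl peptide receptor gene Fpr1, with which neutrophils sense bacterial peptides, was 3.98-fold higher, and the lectin receptor gene Clec4d was 5.21-fold higher. Some granule genes gave only bounds, because their probes were not well above background on the array of LIF-treated wild type. Camp, the gene of the antimicrobial peptide cathelicidin, was at least 14.3-fold higher and the collagenase gene Mmp8 at least 16.5-fold higher, and without LIF they were 30.5-fold and 17.9-fold higher. Csf3r, the receptor of the growth factor that drives neutrophil production, was 3.00-fold higher under LIF, yet its levels of 6.57, 5.54, 6.55 and 7.12 show that the array that stands apart alone was low. In these bulk samples more cells of a type and more RNA per cell cannot be told apart. Pan-T cell genes had a median of −0.95 and B cell genes of −0.44 under LIF, against −0.45 over all measured genes, and the part of cell composition in these differences was not tested.

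**Figure D1:**
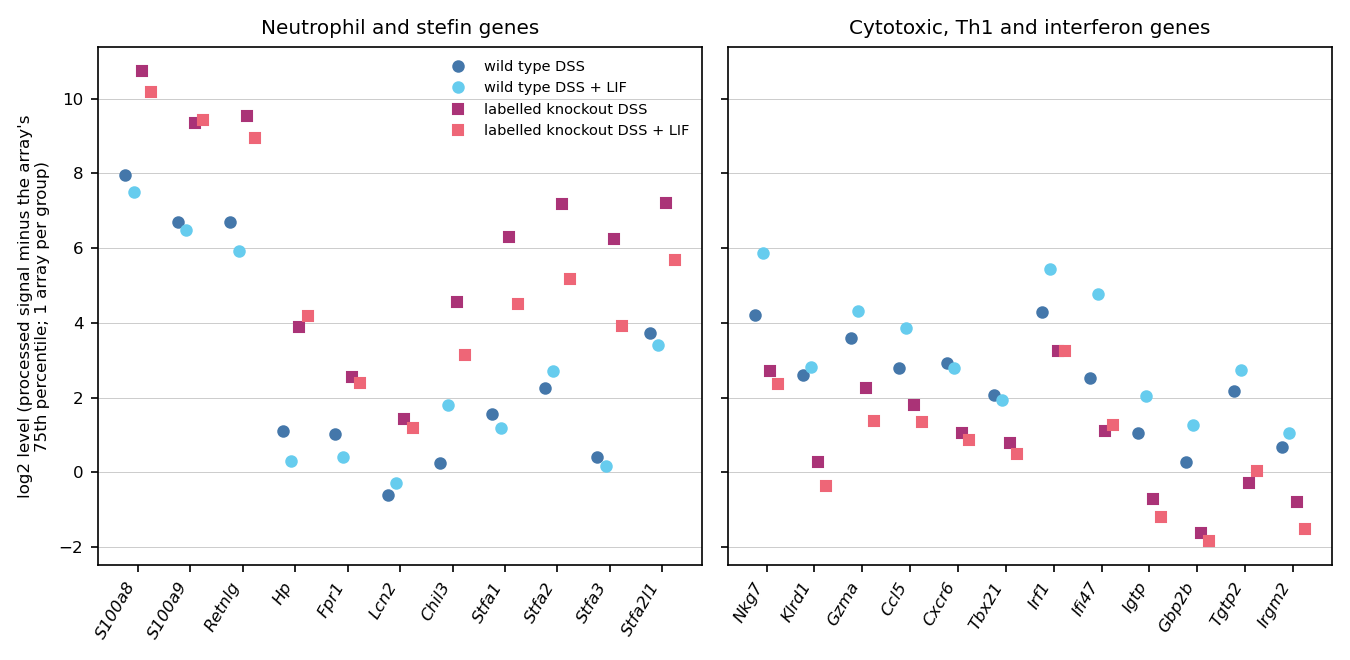
Log2 levels of neutrophil and stefin genes (left) and of cytotoxic, Th1 and interferon-inducible genes (right) on each of the 4 arrays, 1 point per array and gene (circles, wild type; squares, labelled knockout). In the left panel the labelled knockout arrays lie above the wild-type arrays for every gene plotted, with S100a8 at 10.75 and 10.17 against 7.95 and 7.50. In the right panel they lie below, with Nkg7 at 2.72 and 2.37 against 4.21 and 5.86. Measured list members that did not separate the genotypes (such as Csf3r, Elane, Trem1, Irgm1 and Gbp10) or went the other way (such as Klra1, Klra7 and Gbp6) are not plotted. The panels therefore do not show how often list members separate the genotypes.

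The stefin A genes, which encode cytoplasmic inhibitors of cathepsin proteases and are expressed in mouse neutrophils, were higher in all 4 measured members of 5 on the array. Stfa3 had levels of 0.42 in wild type without LIF, 0.16 in LIF-treated wild type, 6.24 in the labelled knockout without LIF and 3.92 in the LIF-treated labelled knockout. It was 13.5-fold higher under LIF and 56.6-fold without LIF. Stfa1 was 9.93-fold, Stfa2 5.51-fold and Stfa2l1 4.85-fold higher under LIF. The list median was 2.89 under LIF (1.67 at the lowest under other background corrections, scalings and filters) and 4.83 without it, and in all 4 genes both labelled knockout arrays lay at least 2-fold above both wild-type arrays. In each of the 4 the LIF-treated labelled knockout was lower than the labelled knockout without it. These genes are close copies of one another, so the share of a single gene in its probe's signal is uncertain.

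Cytokines and chemokines of inflammation split. Of 20 genes 11 were measured, 5 passed 2-fold upwards and 2 downwards, and the median was 0.47; bounds added 3 higher (Cxcl1, Osm and Saa3) and 1 lower (Cxcl3). Lif, the gene of the cytokine that was given, was 19.9-fold higher in the labelled knockout under LIF, with levels of 2.88 in wild type without LIF, 0.80 in LIF-treated wild type, 4.97 in the labelled knockout without LIF and 5.11 in the LIF-treated labelled knockout. Without LIF treatment it was 4.27-fold higher, so both labelled knockout arrays were above both wild-type arrays. Cxcl2, a chemokine that attracts neutrophils, was 11.7-fold higher, with a level of −1.41 on the array that stands apart and of 1.06 to 2.14 on the others. The acute-phase gene Saa3 was at least 11.5-fold higher under LIF and 16.1-fold without it, and Saa1 was 2.73-fold and 2.78-fold higher. Saa2 was 13.7-fold lower, with 5.25 on the array of LIF-treated wild type and 1.43 to 2.31 on the others, and Ccl3, a chemokine of macrophages and T cells, was 2.90-fold lower under LIF and 1.93-fold without it. The chemokine gene Ccl4 had a difference of 6.79, with a level of 4.66 on the array that stands apart and of 10.21 to 11.62 on the others. Saa1 and Saa2 are close copies, so the signal of either is uncertain.

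The receptors and signalling proteins that LIF uses had no common direction. Of 22 LIF, interleukin-6 and gp130 genes 12 were measured, of which 3 passed 2-fold upwards and 2 downwards, and the median of 0.39 turned to −0.55 with normexp without an offset. Besides Lif, the higher genes were Il6ra, the receptor chain that binds interleukin-6 (3.91-fold, and 1.96-fold without LIF), and Cebpb, a transcription factor of the acute-phase response and of neutrophil production (4.58-fold). Cebpb had levels of 5.49 and 4.66 in wild type and 6.45 and 6.86 in the labelled knockout. The lower genes were Ptpn11, the phosphatase that docks on gp130 (3.24-fold), and Il11ra1, the interleukin-11 receptor (2.82-fold), which were 1.19-fold lower and 1.14-fold higher without LIF. Socs3, the feedback inhibitor that STAT3 induces, had levels of 2.08 in wild type without LIF, 2.31 in LIF-treated wild type, 3.43 in the labelled knockout without LIF and 2.93 in the LIF-treated labelled knockout, a difference of 0.62 under LIF. Stat3 had a difference of 0.46 in its brightest probe and of 1.09 in its second. The bounds of Socs2 and Lrg1 were at least 2.76-fold and 2.66-fold higher.

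Among the 6 measured STAT genes, Stat2, which acts in type I interferon signalling, was 6.83-fold lower, with a level of 2.29 on the array of LIF-treated wild type and below 0 on the others. Stat5b is an example of probes that differ: its brightest probe was 353-fold higher in the LIF-treated labelled knockout, with levels of 10.20, 2.26, 11.52 and 10.72, whereas its second probe differed by 0.48. Stat6 had a brightest probe 2.24-fold higher and a second probe with a difference of −0.28. The median of the STAT list was 0.35 and turned to −0.27 with normexp without an offset.

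Genes of NK and cytotoxic cells were more often lower than higher in the labelled knockout under LIF, as were all measured genes. Of 21 genes on the array 12 were measured, and 6 passed 2-fold downwards and 3 (Klra1, Klra7 and Fasl) upwards. Over all measured genes 31.3% passed 2-fold downwards and 14.2% upwards. The list median was −0.94, against −0.96 without LIF and −0.19 with normexp at an offset of 50. In 5 of 11 genes measured on all 4 arrays both labelled knockout arrays lay at least 2-fold below both wild-type arrays, and in 2 above. Nkg7, a membrane protein of cytotoxic granules, had levels of 4.21 in wild type without LIF, 5.86 in LIF-treated wild type, 2.72 in the labelled knockout without LIF and 2.37 in the LIF-treated labelled knockout. It was 11.2-fold lower under LIF by this probe and 6.18-fold by its second probe. Klrd1, which encodes the CD94 chain of inhibitory and activating NK receptors, had levels of 2.62 and 2.82 in wild type and 0.27 and −0.37 in the labelled knockout, 9.15-fold lower under LIF. Gzma, a granule protease, was 7.65-fold lower under LIF and 2.52-fold without it, and the chemokine gene Ccl5 was 5.72-fold lower, with levels of 2.80 and 3.87 against 1.80 and 1.36. Xcl1, a chemokine of activated NK and CD8 T cells, was well above background on both wild-type arrays and on neither labelled knockout array, at least 4.83-fold lower under LIF and at least 6.09-fold lower without it.

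The Klra genes encode Ly49 receptors, close copies of one another. Klra7 and Klra1 were 29.6-fold and 4.12-fold higher under LIF and 3.93-fold and 2.82-fold higher without it. Klra8 was 3.41-fold and 2.17-fold lower, so the signal of a single member is uncertain. Klrg1, a receptor of mature effector cells, was at least 10.1-fold lower under LIF and 1.05-fold lower without it. Fasl, the death ligand of cytotoxic cells, was 2.02-fold higher under LIF and 2.03-fold lower without it.

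Th1 genes, in which STAT4 acts, as a list lay near all measured genes. Of 20 genes 14 were measured, of which 4 passed 2-fold downwards and 1 upwards, where 31.3% and 14.2% of all measured genes did, and the median was −0.64 against −0.45. Ifng, the gene of interferon gamma, had levels of 0.36 in wild type without LIF, 1.62 in LIF-treated wild type, −3.10 in the labelled knockout without LIF, where it was not well above background, and −1.84 in the LIF-treated labelled knockout. Its log2 difference was −3.46 under LIF, and it was at least 5.63-fold lower without LIF. Tbx21, which encodes the Th1 master regulator T-bet, had levels of 2.06 and 1.94 against 0.80 and 0.49 and was 2.75-fold lower. Cxcr6, a chemokine receptor of Th1 and tissue-resident T cells, had levels of 2.93 and 2.81 against 1.05 and 0.87, 3.82-fold lower, and its second probe had a difference of −2.31. Irf1, a transcription factor that interferon gamma induces, was 4.56-fold lower under LIF and 2.05-fold without it. In Tbx21, Cxcr6 and Irf1 the labelled knockout arrays lay at least 2-fold below both wild-type arrays, and such genes numbered 3 lower and 0 higher of the 13 measured on all 4 arrays. The interleukin-12 receptor gene Il12rb2 differed by −0.36 and the chemokine receptor gene Cxcr3 by −0.01. Ets1 had a difference of 1.18 in its brightest probe and of −1.53 in its second, and its mean over probes was −0.17.

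Interferon-inducible GTPases are immunity proteins that attack the vacuoles of intracellular pathogens and that interferon gamma induces. They had the lowest median of the immune lists given here with at least 5 measured members, −2.64, where 6 of 10 passed 2-fold downwards, 1 upwards, and 4 more were lower by their bounds. Without LIF the median was −1.48, with 8 of 11 lower. The promoters of 4 genes that were lower on both labelled knockout arrays are shown. The promoters are RefSeq sequences of build GRCm38.p6 that run from 250 bases before to 50 after the start, and 11 of the 18 listed genes had one. Capitals mark matches to the gamma-activated site TTCNNNGAA and to the core of the interferon-stimulated response element (a pair of GAAA words separated by NN), each searched on both strands.
Igtp promoter (chr11:58199306-58199605, + strand): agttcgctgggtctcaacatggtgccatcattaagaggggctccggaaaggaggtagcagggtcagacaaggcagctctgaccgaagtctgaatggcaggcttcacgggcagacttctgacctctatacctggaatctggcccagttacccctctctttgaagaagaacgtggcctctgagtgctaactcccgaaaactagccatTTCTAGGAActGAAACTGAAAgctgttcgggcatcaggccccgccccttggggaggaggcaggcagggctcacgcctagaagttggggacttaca
Irgm2 promoter (chr11:58214727-58215026, + strand): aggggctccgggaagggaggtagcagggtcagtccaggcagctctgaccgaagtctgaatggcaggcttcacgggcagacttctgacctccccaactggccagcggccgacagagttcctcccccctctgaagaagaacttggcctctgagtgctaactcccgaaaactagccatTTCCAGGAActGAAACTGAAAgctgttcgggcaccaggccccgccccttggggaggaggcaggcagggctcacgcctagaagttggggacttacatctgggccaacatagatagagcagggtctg
Tgtp2 promoter (chr11:49064163-49064462, - strand): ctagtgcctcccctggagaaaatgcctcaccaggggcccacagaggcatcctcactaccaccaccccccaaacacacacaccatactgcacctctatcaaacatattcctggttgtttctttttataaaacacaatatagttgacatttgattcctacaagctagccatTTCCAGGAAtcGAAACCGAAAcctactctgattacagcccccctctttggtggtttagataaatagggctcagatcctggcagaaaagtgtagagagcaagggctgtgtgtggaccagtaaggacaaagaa
Gbp2b promoter (chr3:142594597-142594896, + strand): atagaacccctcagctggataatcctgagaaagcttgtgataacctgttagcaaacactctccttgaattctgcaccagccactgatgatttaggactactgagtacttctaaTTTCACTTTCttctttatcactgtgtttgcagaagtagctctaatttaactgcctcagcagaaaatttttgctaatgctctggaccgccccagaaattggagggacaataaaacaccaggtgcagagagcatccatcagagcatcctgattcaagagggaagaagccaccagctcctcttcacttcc
In Igtp, Irgm2 and Tgtp2 a match to the first motif stood 2 bases from a match to the second, while Gbp2b had a match to the second alone. Ifi47, which had the lowest measured difference of the list, held neither motif, and it was the only one of the 11 genes without a match in any of its promoters. Irgm1 held 2 matches to the second motif and differed by −0.27 under LIF and −1.19 without it. Gbp5 held 2 matches to the first motif and 1 to the second, and differed by −0.39 under LIF. Gbp2, Gbp3, Gbp7 and Tgtp1 also held matches but had no measured difference under LIF. Over 12 promoters of the list 50% held the gamma-activated site and 83.3% the response element core, against 8.30% and 3.44% of all 32851 promoters of that length. The 2 motifs overlapped in 24 of all promoters and in 0 of the 12. A match describes these letters and is not a site of binding.

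The genotypes separated by at least 2-fold in 5 of the 9 GTPase genes measured on all 4 arrays as lower in the labelled knockout, and in 1 as higher. Ifi47 had levels of 2.53 in wild type without LIF, 4.77 in LIF-treated wild type, 1.10 in the labelled knockout without LIF and 1.28 in the LIF-treated labelled knockout, and was 11.2-fold lower under LIF. Igtp had levels of 1.04 and 2.04 against −0.70 and −1.19, a difference of 9.32-fold, and Gbp2b had 0.27 and 1.27 against −1.63 and −1.85, a difference of 8.68-fold. Tgtp2 was 6.52-fold and Irgm2 5.95-fold lower. Irgm1 and Gbp10 did not separate the genotypes, with differences of −0.27 and −0.32 under LIF. In Ifi47, Igtp, Gbp2b, Tgtp2 and Irgm2 both labelled knockout arrays were at least 2-fold below both wild-type arrays. Gbp4, Gbp3, Gbp8 and Gbp2 were at least 13.6-fold, 7.92-fold, 6.13-fold and 2.78-fold lower by their bounds. Gbp6 went the other way, 5.57-fold higher, with levels of 8.97 and 7.74 against 10.53 and 10.22, and Gvin1 had one probe 10.9-fold lower and another with a difference of 0.18. The GTPase families hold close copies, so the signal of a single member is uncertain. The list median was −0.39 without the array blocks in which the array that stands apart correlated least with the rest, and −0.63 with normexp at an offset of 50.

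Antiviral genes of the type I interferon response had a lower median under LIF than without it. Of 23 genes on the array 11 were measured, of which 6 passed 2-fold downwards and 1 upwards, and the median was −1.21 under LIF and 0.04 without it. Under 9 other background corrections, scalings, filters and summaries it lay between −1.39 and −0.20 and passed 2-fold in 4. Whether the genotype differences with and without LIF differ was not tested. The array of LIF-treated wild type was the high one: Ifih1, a sensor of viral RNA, had a level of 2.13 there and −0.99 to −0.63 on the others, and Ddx58, which encodes RIG-I, had 3.14 there and 0.91 to 1.01 on the others. Oasl2 was 20.3-fold lower, with 2.63 there against −1.30 in wild type without LIF. Cxcl10, a chemokine induced by both interferon types, was at least 17.6-fold lower under LIF and at least 2.44-fold lower without it. Ifi44 was 4.62-fold higher and Oas1a at least 4.05-fold higher under LIF, and both were also higher without it, by 2.53-fold and by a log2 bound of 4.58.

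**Figure D2:**
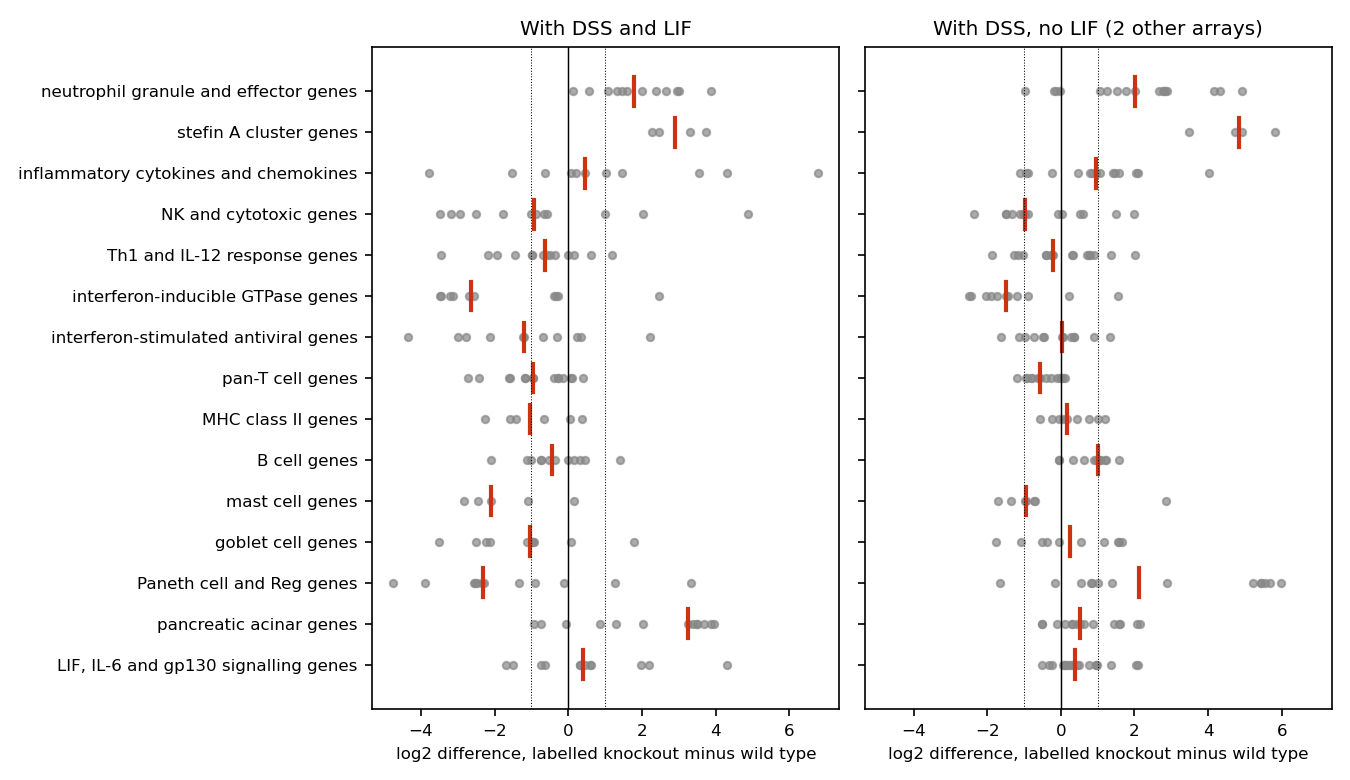
Log2 differences, labelled knockout minus wild type, of each measured member (grey points) of 15 gene lists, with the list median as a red bar, for the arrays with DSS and LIF (left) and the arrays with DSS alone (right); dotted lines mark 2-fold. Neutrophil and stefin medians lie to the right in both panels (1.79 and 2.89 under LIF) and the interferon-inducible GTPase median to the left in both (−2.64 and −1.48), while Paneth cell and Reg genes lie on opposite sides (−2.31 and 2.13).

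Pan-T cell genes were lower in 6 of 15 measured members under LIF and higher in 0, with a median of −0.95. Over all measured genes 31.3% were lower and 14.2% higher, so the count of lower members was not far from that share. Without LIF 1 of 15 was lower and the median was −0.57. Cd3d, a chain of the T cell receptor complex, had levels of 1.60 in wild type without LIF, 2.33 in LIF-treated wild type, 0.67 in the labelled knockout without LIF and −0.39 in the LIF-treated labelled knockout, and was 6.58-fold lower under LIF. The costimulatory receptor gene Cd28 was 5.33-fold lower, and its levels of 3.31 and 4.63 against 2.12 and 2.22 were the only ones of the list at least 2-fold apart between the genotypes on all arrays. Cd4 was 3.02-fold lower, with a level of 3.71 on the array that stands apart and of 1.91 to 2.11 on the others, and its difference without LIF was −0.02. Lck, the kinase of CD4 and CD8, was 2.28-fold lower under LIF and 1.75-fold without it, but Cd3g, Cd3e and Cd8a had differences of −0.95, −0.27 and 0.08. Cd8b1 was well above background only on the array of LIF-treated wild type.

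Helper T cell subsets other than Th1 had few measured members. Of 6 measured regulatory T cell genes 2 passed 2-fold downwards and 1 upwards (median −0.92), near the 31.3% and 14.2% of all measured genes. Without LIF 3 of 7 were lower, where 6.94% of all measured genes were. Foxp3, the regulator of regulatory T cells, had levels of 0.90 in wild type without LIF, −0.02 in LIF-treated wild type, −0.34 in the labelled knockout without LIF and −1.49 in the LIF-treated labelled knockout, 2.76-fold lower under LIF. Ikzf2, a transcription factor of regulatory T cells, was 2.15-fold lower by its brightest probe and had a difference of −3.08 in its second, and it was 2.21-fold lower without LIF. Ctla4, their inhibitory receptor, was 2.10-fold higher under LIF and 2.56-fold lower without it. Il4, the type 2 cytokine, had levels of 0.90 and 1.82 in wild type against −1.20 and −1.56 in the labelled knockout, 10.4-fold lower under LIF, and Il1rl1, the interleukin-33 receptor, was 2.70-fold lower. Il21, a cytokine of helper T cells, had levels of 0.72 and 0.14 against −1.73 and −1.81, 3.87-fold lower. Of the Th17 and innate type 3 genes 3 of 12 were measured, and the defining cytokine genes Il17a, Il17f and Il22 were not among them.

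B cell genes had a different order of arrays. Of 12 measured, 3 passed 2-fold downwards and 1 upwards under LIF (median −0.44, close to the −0.45 of all measured genes), whereas without LIF 7 of 13 were higher and 0 lower (median 1.02). The mean level of the 12 genes measured on all 4 arrays was 0.94 in wild type without LIF, 1.35 in LIF-treated wild type, 1.77 in the labelled knockout without LIF and 1.00 in the LIF-treated labelled knockout. Cr2, a complement receptor, was 4.29-fold lower under LIF in its brightest probe. Plasma cell genes had a median of −0.28, with 2 of 11 lower and 1 higher, where 31.3% and 14.2% of all measured genes were. Tnfrsf17, which encodes the plasma cell survival receptor BCMA, had levels of 1.51 and 1.44 in wild type and −0.77 and −1.54 in the labelled knockout, 7.88-fold lower under LIF, and Prdm1, the regulator of plasma cell differentiation, was 2.67-fold lower.

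Antigen-presenting cells showed no common direction. The MHC class II list had 3 of 6 measured genes past 2-fold downwards and 0 upwards, with medians of −1.04 under LIF and 0.18 without it. Of all measured genes 31.3% passed 2-fold downwards and 14.2% upwards under LIF. H2-Ab1, the beta chain of the I-A molecule, had levels of 5.65 in wild type without LIF, 7.73 in LIF-treated wild type, 5.83 in the labelled knockout without LIF and 5.46 in the LIF-treated labelled knockout. It was 4.81-fold lower under LIF, its second probe had a difference of −2.14, and only the array that stands apart was high. H2-Aa, the partner chain, was at least 3.95-fold higher by its bound, and Cd74, the invariant chain, had a difference of 0.37. Macrophage and monocyte genes had a median of −0.23, with 2 of 12 past 2-fold upwards and 3 downwards, near the shares of all measured genes. Itgam and Adgre1 each had probes of opposite sign, from −2.93 to 1.52 and from −1.92 to 0.63. Mast cell genes were lower in 4 of 5 (median −2.11), with the proteases Mcpt4 and Cpa3 7.13-fold and 5.43-fold lower and the stem cell factor receptor gene Kit 4.32-fold lower (1.67-fold, 2.56-fold and 1.92-fold without LIF), while Cma1 and Hdc were higher by their bounds. Without LIF the mast cell median was −0.94, and with LIF the median under other processing lay between −2.28 and −0.48.

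Genes of cells other than lymphocytes were present on all arrays, since epithelial identity genes such as Lgals4, Cdh1 and Krt18 were well above background on each. For the epithelial lists below, the shares of all measured genes under LIF were 14.2% past 2-fold upwards and 31.3% downwards. Epithelial identity genes had a median of −0.36, with 3 of 16 members past 2-fold upwards and 2 downwards. Their mean level was 2.65 and 2.69 in wild type and 2.23 and 2.56 in the labelled knockout. Epcam, Krt8 and Krt19 were 6.64-fold, 3.91-fold and 3.62-fold higher under LIF and had log2 differences of −0.93, −0.57 and −0.43 without it. Krt20, a keratin of mature surface cells, was 8.20-fold lower under LIF and 2.64-fold without it. Colonocyte transport genes had a median of −1.67 under LIF, with 5 of 9 past 2-fold downwards and 1 upwards, and near 0 without it. Aqp8, a water channel of colonocytes, had levels of 0.24 in wild type without LIF, 3.15 in LIF-treated wild type, −1.53 in the labelled knockout without LIF and −0.75 in the LIF-treated labelled knockout, 15.0-fold lower under LIF, while Cftr, the chloride channel, was the member that went the other way, 11.6-fold higher under LIF and 1.66-fold without it. Slc26a3, the chloride and bicarbonate exchanger of the colon surface, was 5.38-fold lower under LIF and 3.39-fold without it. Goblet cell genes had a median of −1.04, with 5 of 10 past 2-fold downwards and 1 upwards. Their mean level was 4.21 on the array of LIF-treated wild type and 2.42 to 2.96 on the others. Clca1 and Tff3, secreted products of goblet cells, were 11.3-fold and 5.72-fold lower under LIF, and 3.15-fold and 2.27-fold higher without it. The part of epithelial cells in the differences of other genes was not tested.

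Paneth cell and Reg genes ran in opposite directions with and without LIF. The median was −2.31 with LIF, where 8 of 12 passed 2-fold downwards and 2 upwards, and 2.13 without it, with 9 of 14 higher and 1 lower. Alpha-defensins are antimicrobial peptides that Paneth cells of the small intestine secrete. Defa3 had 3 measured probes, the brightest with levels of 1.00 in wild type without LIF, 8.63 in LIF-treated wild type, 6.43 in the labelled knockout without LIF and 6.08 in the LIF-treated labelled knockout. Wild type with DSS was thus the low array, LIF-treated wild type the high one, and the labelled knockout arrays lay between them and close together. Defa23, with 2 measured probes, had levels of 2.21, 9.77, 7.65 and 7.22 in its brightest, and Itln1, a lectin of Paneth and goblet cells, had 0.78, 5.09, 3.66 and 2.61. A probe can read several defensin genes, which are nearly alike in sequence. The lectin genes Reg3b and Reg3g differed by −1.34 and −0.10, and Reg1 was higher by 3.34.

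Pancreatic acinar genes, whose products are digestive enzymes, had the highest median under LIF of the lists with at least 5 measured members, 3.25, where 9 of 13 passed 2-fold upwards, 0 downwards, and 3 more were higher by their bounds. Without LIF the median was 0.52, with 5 of 15 higher and 0 lower. Try5, a trypsinogen, had levels of 4.86 in wild type without LIF, 3.34 in LIF-treated wild type, 5.50 in the labelled knockout without LIF and 7.29 in the LIF-treated labelled knockout, and was 15.5-fold higher under LIF. The carboxypeptidase gene Cpa1 had levels of 1.76 and 1.65 in wild type and 3.83 and 5.14 in the labelled knockout, 11.3-fold higher under LIF and 4.19-fold without it, and it was the only member at least 2-fold higher on both labelled knockout arrays than on both wild-type arrays. The trypsinogen genes Prss1 and Prss2 were at least 43.7-fold and 31.4-fold higher under LIF and 1.44-fold and 1.24-fold without it. Acinar cells belong to the pancreas and not to the lamina propria, and the source of these transcripts was not tested. The mean level of the 13 genes was 4.41 in the LIF-treated labelled knockout and 2.29 to 3.28 on the others.

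Stromal and vascular genes had mixed directions. Of 12 measured stromal and collagen genes 4 passed 2-fold upwards and 2 downwards; the median of 0.17 turned to −0.09 when the array blocks of lowest correlation were left out. Col3a1, a fibrillar collagen, had levels of 0.33 and −0.14 in wild type and 2.47 and 1.67 in the labelled knockout, and the proteoglycan gene Dcn had −0.40 and −0.72 against 2.02 and 1.09. Both were 3.51-fold higher under LIF and at least 2-fold higher on both labelled knockout arrays than on both wild-type arrays. Plvap, an endothelial membrane protein, had levels of 9.61, −1.07, 10.54 and 10.33, so that its difference of 11.40 came from 1 array. Of 432 genes with levels of at least 6 on each of the other 3 arrays, 63 (14.6%) were at least 16-fold dimmer on the array of LIF-treated wild type. Only 8 of these 63 had several measured probes, and in 6 of the 8 another probe differed by less than 2-fold or went the other way.

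**Figure D3:**
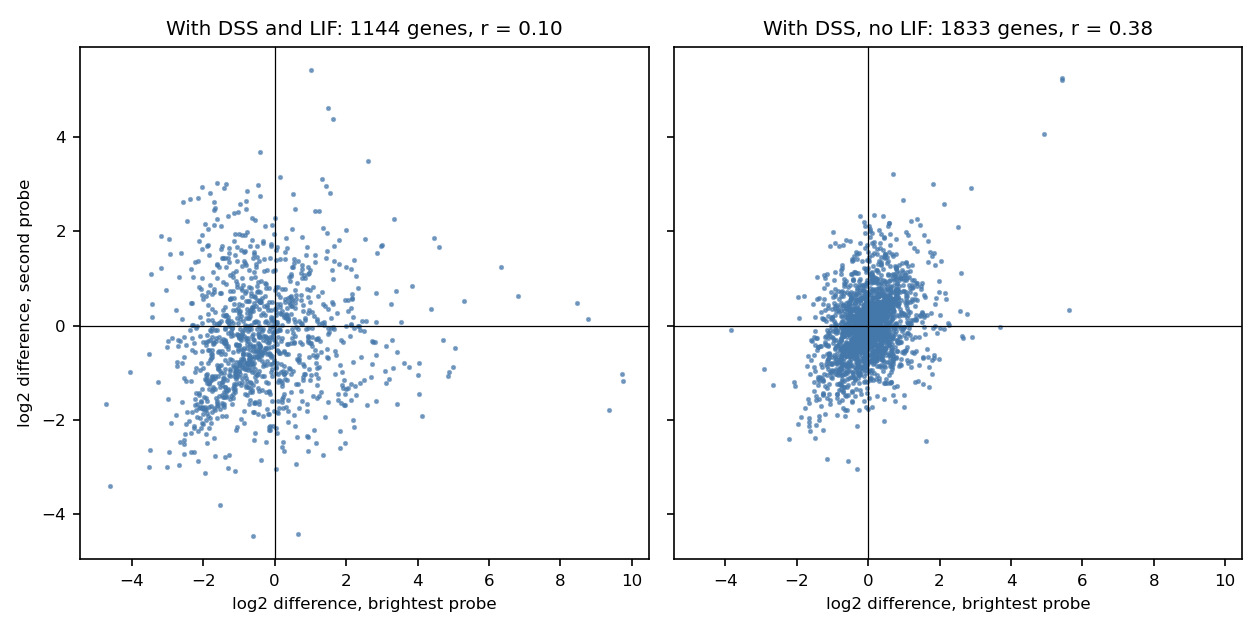
Log2 difference, labelled knockout minus wild type, of the second-brightest probe against that of the brightest probe, 1 point per gene with several measured probes, for the arrays with DSS and LIF (left, 1144 genes) and with DSS alone (right, 1833 genes). Points under LIF spread along both axes (r = 0.10), more than those without LIF (r = 0.38).

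Several probes of one gene give a check on its difference. Of the 8346 genes measured under LIF, 7205 had 1 measured probe and could not be checked in this way. They include every measured gene of the neutrophil, stefin, inflammatory cytokine, antiviral, pan-T cell, mast cell, goblet cell and pancreatic acinar lists. All measured probes had one sign in 638 of 1144 genes (55.8%) under LIF and in 1057 of 1833 (57.7%) without it. In the 1144 genes with several measured probes the differences of the brightest and second probes correlated at r = 0.10 (Spearman's rho 0.14), against 0.38 (0.33) in 1833 genes without LIF. These are correlations across genes, which are not independent replicates. When the brightest probe was at least 2-fold different, the second had the same sign in 350 of 584 genes (59.9%) under LIF and in 212 of 293 (72.4%) without it. Unrelated probes would also share a sign in many genes, the more so under a common shift such as the median of −0.45 with LIF. That share was not computed, so the shares of one sign do not by themselves show that probes agree. Under LIF all measured probes passed 2-fold upwards in 29 genes (2.53%) and downwards in 138 (12.1%), against 32 (1.75%) and 47 (2.56%) without LIF.

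The genes highest by their least changed probe under LIF included Pbsn, Tet2, Lilra6, Lcp1, Eva1b, Spint2, Anxa1, Zfp330, Fam104a, Bfar, Rps6, Snx9, H4c12 and Cdk8. In most of them the array of LIF-treated wild type was low and the other arrays were alike. Tet2, which encodes an enzyme that oxidizes methylated cytosine in DNA, had levels of 2.95 in wild type without LIF, 1.16 in LIF-treated wild type, 3.08 in the labelled knockout without LIF and 3.15 in the LIF-treated labelled knockout by its brightest probe, and the probes were 3.98-fold and 4.07-fold higher under LIF. Lcp1, the leukocyte actin-bundling protein L-plastin, had 4.05, 0.84, 3.34 and 3.85 in the same order. Spint2, a serine protease inhibitor of epithelia, was 24.4-fold and 3.15-fold higher by its probes under LIF and had differences of −1.48 and −0.40 without it. Anxa1 and Pbsn differed in both comparisons. Anxa1, which encodes annexin A1, a protein abundant in neutrophils that limits inflammation, had levels of 3.32, 4.24, 5.43 and 5.87 by its brightest probe and of 1.04, −0.58, 3.61 and 3.80 by its second. Its difference under LIF was 1.63 and 4.38, and without LIF 2.12 and 2.58. Pbsn, the prostate secretory protein probasin, had levels of 4.43, 2.21, 6.47 and 4.82 by its brightest probe.

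The 15 genes lowest by their least changed probe were Defa42, Immp1l, Aurkaip1, Nkg7, Tubb2b, Defa23, Rheb, Defa3, Zfp800, Prdx1, H2az1, Pmp22, Snrpe, Rbis and H2-Ab1. Immp1l, a peptidase of the mitochondrial inner membrane, had levels of 3.86 in wild type without LIF, 4.99 in LIF-treated wild type, 2.20 in the labelled knockout without LIF and 1.98 in the LIF-treated labelled knockout, and its probes were 8.06-fold and 7.96-fold lower under LIF. Rheb, the small GTPase that activates mTORC1, had 4.25, 4.81, 2.28 and 2.46 and was 5.08-fold and 6.41-fold lower. The antioxidant enzyme gene Prdx1 had 5.71, 6.25, 4.34 and 3.92, and H2az1, a histone variant, had 6.78, 7.38, 5.38 and 5.13. In these 4 genes the genotypes did not overlap, and the wild-type arrays were the higher ones. In Aurkaip1, Snrpe, Rbis and H2-Ab1 it was the array of LIF-treated wild type alone that was high. Aurkaip1, for example, had 2.93, 6.06, 2.99 and 2.53.

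Among genes measured in both genotype comparisons, the differences with and without LIF correlated weakly. Over 8037 genes r was 0.205 and rho 0.167, from 4 arrays of which none is shared. Of the genes at least 2-fold higher under LIF 23.6% (278 of 1179) passed 2-fold upwards without LIF too, where 760 of all 8037 genes did. That is 36.6% of the 760. Of those lower under LIF 11.2% (281 of 2503) were also lower without LIF, where 570 of all 8037 genes were. That is 49.3% of the 570. In the opposite direction were 85 of the 1179 genes higher with LIF, which were lower without it, beside 570 of all 8037. Another 163 of the 2503 lower with LIF were higher without it, beside 760 of all 8037. By every measured probe, 3 genes were higher in both comparisons (Anxa1, Gab3 and Pbsn) and 15 lower in both. That is 10.3% of 29 and 11.6% of 129 under LIF, and 20% of 15 and 37.5% of 40 without it. In all, 1098 genes had several measured probes in both comparisons, and without LIF 15 of these were higher and 40 lower. The 15 genes lower in both comparisons were Abracl, Calm2, Cks1b, Coq10b, Cxcr6, Eloc, Epc2, H2az1, Ikzf2, Immp1l, Nkg7, Ppih, Prdx1, Rheb and S100a4. Nkg7 and Cxcr6 belong to cytotoxic and Th1 cells and Ikzf2 to regulatory T cells. Calm2 encodes calmodulin, Cks1b a cofactor of cyclin-dependent kinases, and S100a4 a calcium-binding protein of motile and effector cells. Cks1b had differences of −1.91 and −1.88 under LIF and of −1.96 and −1.64 without it.

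**Figure D4:**
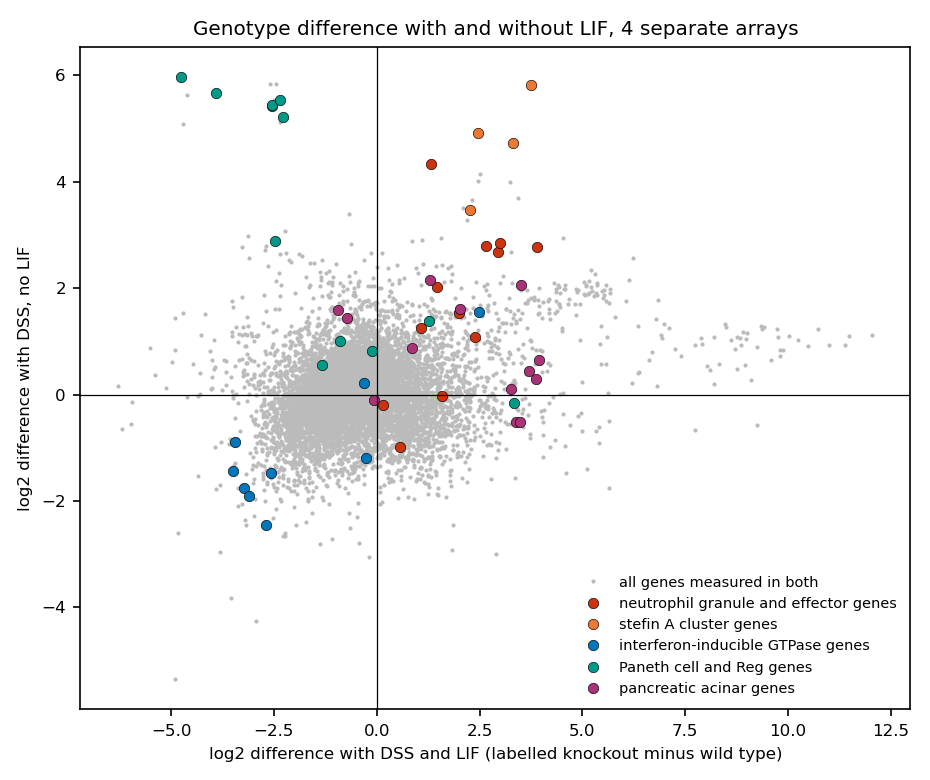
Log2 difference with DSS alone (vertical) against that with DSS and LIF (horizontal), labelled knockout minus wild type, 1 point per gene measured in both (8037 genes, grey), with 5 gene lists in colour. Neutrophil and stefin genes lie mostly in the upper right and GTPase genes mostly in the lower left, while alpha-defensins lie in the upper left. Grey points reach farther along the horizontal axis than along the vertical (SD 1.58 over all genes measured with LIF and 0.849 over those measured without it).

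Genes of multi-subunit complexes, whose members are made in fixed proportion, spread more widely under LIF than without it, as did all measured genes. The SD over all measured genes was 1.58 under LIF and 0.849 without it, above those of the ribosomal and respiratory chain lists. Under LIF 14.2% of all measured genes passed 2-fold upwards and 31.3% downwards. Of 78 cytosolic ribosomal protein genes all were measured, 15 passed 2-fold upwards and 32 downwards, and the differences ran from −2.63 to 2.71 with a median of −0.69 and an SD of 1.31. Without LIF 1 was higher and 1 lower, with an SD of 0.438. Rpl5 was 2.71 higher and Rpl19 2.47 higher in log2, whereas Rpl39 and Rpl34 were lower by −2.41 and −2.19 in their brightest probes. Rpl13 had probes from −1.63 to 2.52, and Rpl24 from −2.63 to 1.54. All measured probes had one sign in 30 of 48 ribosomal genes with several. Respiratory chain genes had 4 of 63 higher and 30 lower (median −0.92, SD 1.20), against 1 and 6 of 65 without LIF (median −0.26, SD 0.517). Sdhb, a subunit of succinate dehydrogenase, had levels of 8.58 in wild type without LIF, 5.39 in LIF-treated wild type, 9.18 in the labelled knockout without LIF and 8.89 in the LIF-treated labelled knockout. Proteasome genes had 4 of 30 higher and 12 lower (median −0.62), and 4 of 30 had both labelled knockout arrays at least 2-fold below both wild-type arrays, among them Psma1 with 4.07 and 4.80 against 2.38 and 2.87.

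**Figure D5:**
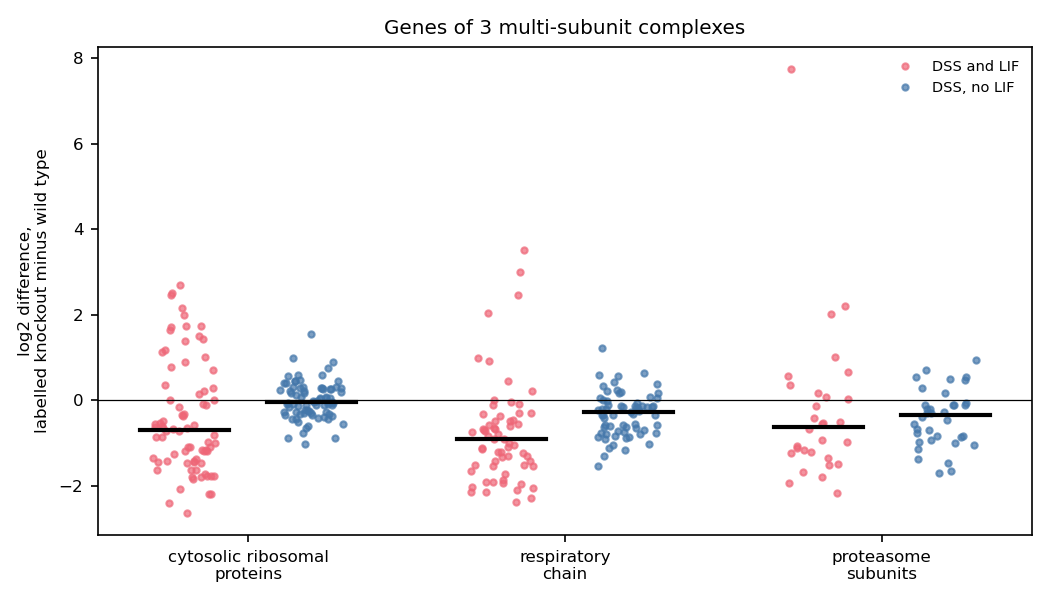
Log2 differences, labelled knockout minus wild type, of the measured genes of 3 complexes, 1 point per gene with the median as a black bar, for the arrays with DSS and LIF and for those with DSS alone; points are shifted sideways for display. Ribosomal protein genes run from −2.63 to 2.71 under LIF (SD 1.31) and spread less without it (SD 0.438), and 1 proteasome gene, Psmb2, lies at 7.74 under LIF.

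Reference genes did not hold a common level. Of 14 measured, 2 passed 2-fold upwards and 7 downwards under LIF (median −0.66), against 1 higher and 2 lower without it. Among all measured genes 14.2% passed 2-fold upwards and 31.3% downwards under LIF, with a median of −0.45. Hprt and B2m, the light chain of MHC class I, were lower on both labelled knockout arrays than on both wild-type arrays: Hprt had levels of 6.93 in wild type without LIF, 7.55 in LIF-treated wild type, 4.88 in the labelled knockout without LIF and 4.27 in the LIF-treated labelled knockout, and B2m had 8.05, 9.05, 6.77 and 6.16. Actb, beta actin, was 2.47-fold higher under LIF and differed by 0.19 without it. Cell cycle genes had a median of −0.71, with 3 of 23 past 2-fold upwards and 4 downwards, and Pcna, the sliding clamp of DNA replication, had 3.13 and 4.61 in wild type against 2.05 and 2.34 in the labelled knockout. Immediate-early genes passed 2-fold upwards in 3 of 13 and downwards in 1, and their median of 0.36 turned to −0.40 with normexp without an offset. Egr2, a transcription factor of activated lymphocytes and macrophages, had 2.99 and 0.97 against 5.01 and 5.40 and was 4.43 higher in log2 under LIF and 2.03 without it.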

How the data were processed

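RNA of lamina propria lymphocytes was read on 4 one-colour arrays, 1 per group. The deposited intensity values are Agilent Feature Extraction output. Its version is 11.0.1.1 in the file headers, while the submitters' processing notes name 9.1. The processed signal is background-subtracted, per the file headers. A deposited table of log2 values served as an alternative. Column medians there were 2.54 (LIF-treated wild type) and 3.31 (the other arrays), and its values correlated at 0.971 to 0.992 with the scanner's. Its scale and centring are not known.

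Control and outlier spots were left out, log2 signals of a probe's spots were averaged, and each array was scaled to its 75th percentile. A probe was taken as above background if 50% or more of its spots carried the scanner's flag for it. RefSeq accessions named 27228 of 39429 probes (69.1%), as 20655 genes of assembly GRCm38.p6, and a gene took its probe of highest mean level. Named genes were the 15 highest and 15 lowest by their least changed probe among genes whose measured probes, more than 1, were all at least 2-fold different, up to 5 members each way of each of 36 lists, and Stat4. Some genes that the rule names are not reported here. Members named beyond these were chosen after their values were seen. The members, lists and rules were chosen with earlier results of these data known. Differences were computed in Python 3.11.15 and normexp in limma 3.58.1, and the counting was tested on simulated arrays. Alternatives changed the background correction, scaling, filter, probe summary, array blocks and source table.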

Additional observations from a re-analysis of the deposited data

Results flagged for a closer look

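Paneth cell and Reg genes differed between genotypes in opposite directions with and without LIF, each by 1 array against 1. The list median of the log2 difference, labelled knockout minus wild type, was −2.31 with LIF and 2.13 without it. In 3 genes every measured probe followed that pattern. Defa23 ran from −2.55 to −2.43 with LIF and from 5.19 to 5.44 without it. Defa3 ran from −2.72 to −2.32 with LIF and from 5.24 to 5.66 without it. Itln1 ran from −2.48 to −2.09 with LIF and from 2.89 to 2.92 without it. The difference between the 2 genotype differences was not tested, because each group has 1 array.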

How the results depend on the processing

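No paired analysis was possible because each group has 1 array and the labels give no replicate numbers. The 1182 genes at least 2-fold higher became 439 with normexp at an offset of 50, 455 with normexp without an offset and 3485 without a background filter, and the 2612 lower became 1205 with normexp at an offset of 50 and 4409 without a filter. Genes with every measured probe higher (29) became 2, 1, 15 and 188 with normexp at an offset of 50, normexp without an offset, blocks of lowest correlation left out and no filter, and those lower (138) became 59, 80 and 218 with normexp at an offset of 50, blocks left out and no filter. The median of −0.45 became −0.17 with normexp at an offset of 50 and −0.31 with centring on probes well above background on all arrays. Of 190 named genes past 2-fold, the planned settings turned Ets1 (−0.17, mean over probes), Fcer1a (0.051, normexp without an offset) and, with blocks left out, Psme2 (0.29) and Rpl24 (1.54); the cause was not tested. An alternative chosen after seeing the data put the wild-type array without LIF in place of the one with LIF. The LIF-treated labelled knockout array enters this difference and the main one, so a shared sign is not an independent check. By this alternative 640 genes were lower, 51 by every measured probe, and the median was 0.13. It kept the sign of 155 of the 190 genes, and turned the list medians of colonocyte (0.16), goblet (0.16) and Paneth genes (1.55), which were past 2-fold, and of B cell (0.095), macrophage (0.32), epithelial (0.034), erythroid (0.19), cell cycle (0.10), reference (0.070) and adipocyte genes (1.06), which were not. It also turned Car4 (0.36), Ccnb1 (0.37), Ccr2 (−0.34), Cd22 (0.31), Cd4 (0.19), Chek1 (−0.090), Clca1 (1.25), Ctla4 (−0.66), Cxcl5 (−0.88), Ddx58 (0.092), Defa23 (5.01), Defa29 (5.64), Defa3 (5.08), Defa42 (5.40), Defa5 (5.42), Edem1 (−0.29), Ets1 (−0.19), Fasl (−1.18), Fcer1a (0.12), Ifih1 (0.12), Itgam (0.85), Itln1 (1.83), Jund (0.16), Lcp1 (−0.21), Mcm6 (0.11), Pmp22 (0.20), Psma4 (−1.08), Psma6 (−0.38), Psmb2 (−0.037), Psmb7 (−0.23), Rpl24 (0.36), Tagln (0.66), Tff3 (0.67), Tyms (−1.30), Zfp330 (−0.031). Depth is limited by the LIF-treated wild-type array, which had the fewest probes well above background.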
